A study of Caenorhabditis elegans with 2 samples.

Results

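Of the 2005 peaks thresholded for agreement between replicates in a chromatin immunoprecipitation and sequencing (ChIP-seq) experiment on the tagged forkhead factor FKH-10, 361 (18%) had their summit inside an intron of an autosomal protein-coding gene and away from gene starts. A peak was counted here when its summit lay on any chromosome but X, inside a protein-coding gene but in no protein-coding exon, and over 500 bp from the annotated 5' end of every protein-coding gene. All 361 were kept, with no filter on signal. The chromatin came from whole Caenorhabditis elegans larvae at the L3 stage, the third of 4 larval stages, of mixed sex. Per the labels the strain was OP337, which carries the allele unc119(ed3) and an array, wgIs377, that holds fkh-10 fused to TY1, EGFP and FLAG beside unc119 as the rescuing marker. The line thus measures a tagged copy of FKH-10 carried on a transgene. Both libraries, labelled biological replicates 1 and 2, belonged to this 1 group. The sources used here do not give the number of animals behind each, the depth of sequencing or the cells that express the transgene. The series had no second genotype, stage or tissue, and the control alignment was not analysed here. The comparisons below were therefore made between classes of peaks, and between a summit and the sequence beside it. Peaks are not animals: their p-values measure the spread over peaks, and some peaks share a gene or a replicate region.

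Forkhead factors bind DNA through a winged helix domain, and most of those studied in animals recognise the core RTAAAYA (R for a purine, Y for a pyrimidine), of which GTAAACA is the best known form. In C. elegans the family includes pha-4, a selector of pharyngeal identity, and daf-16, the FoxO factor of the insulin pathway. Most worm introns are short. Long introns, and first introns in particular, are known in this animal to hold enhancers, alternative promoters and genes for small RNAs. A peak in an intron of whole animals can come from any of their cells, and it does not name the gene that the site acts on.

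The sequence under the strongest of these peaks is shown first, to set the letters at the summits beside the forkhead core. Each stretch spans 50 bp on either side of the summit, is given 5' to 3' on the plus strand of build ce11 (WBcel235), and was read from the RefSeq genome of that assembly. Capitals mark any of the 5 purine-rich 7-mers described further on. Lower case in the printed stretches, here and below, does not mark repeats. The 4 strongest peaks on chromosomes II to V lay in unc-42, hif-1, T28B11.1 and Y111B2A.12, and their signal values were 129, 104, 102 and 97.4. None of the 4 held RTAAAYA, and T28B11.1 and Y111B2A.12 held a purine-rich 7-mer.
unc-42 (chrV:9765743-9765843): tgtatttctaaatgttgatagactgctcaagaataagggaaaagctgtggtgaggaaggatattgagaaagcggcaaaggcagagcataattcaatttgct
hif-1 (chrV:20782301-20782401): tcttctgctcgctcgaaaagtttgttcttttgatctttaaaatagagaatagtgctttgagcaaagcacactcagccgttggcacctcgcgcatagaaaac
T28B11.1 (chrV:10715917-10716017): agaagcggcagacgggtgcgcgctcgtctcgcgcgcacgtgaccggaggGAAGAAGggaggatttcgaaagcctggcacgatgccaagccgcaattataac
Y111B2A.12 (chrIII:12612575-12612675): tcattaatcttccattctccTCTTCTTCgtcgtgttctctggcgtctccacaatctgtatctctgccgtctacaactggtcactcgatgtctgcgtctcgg

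The forkhead core GTAAACA lay within 50 bp of 4 of the 361 summits. The 3 of these on chromosomes II to V are printed with GTAAACA, or its reverse complement, in capitals. They lay in pfas-1, whose product acts in purine synthesis, in pac-1, a RhoGAP of embryonic cell polarity, and in fkh-7, itself a forkhead gene. Their signal was 78.4, 67.2 and 42.4. The purine-rich 7-mers, among them AAGAAGA, were left in lower case in these windows. AAGAAGA is also present in the windows of pfas-1 and pac-1, and not in that of fkh-7.
pfas-1 (chrIII:4626678-4626778): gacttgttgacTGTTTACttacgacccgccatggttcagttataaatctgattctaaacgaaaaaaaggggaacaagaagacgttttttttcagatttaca
pac-1 (chrIII:8511883-8511983): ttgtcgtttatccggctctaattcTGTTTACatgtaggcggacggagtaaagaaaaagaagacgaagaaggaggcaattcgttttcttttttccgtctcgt
fkh-7 (chrIV:5604709-5604809): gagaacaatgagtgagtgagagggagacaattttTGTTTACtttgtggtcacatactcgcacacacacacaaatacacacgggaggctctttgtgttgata

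A purine-rich repeat was more frequent than the forkhead core. AAGAAGA or its reverse complement lay within 50 bp of 90 of the 361 summits. The strongest such peaks on chromosomes II to V, beside the one in Y111B2A.12 above, are printed with the 5 purine-rich 7-mers in capitals. They were chosen after their values were seen and lay in pde-3, a phosphodiesterase gene, egl-19, which encodes a voltage-gated calcium channel, and nlp-11, which encodes a neuropeptide precursor. In pde-3 the capitals fall into separate runs, and in egl-19 the repeat runs without a break.
pde-3 (chrII:14938479-14938579): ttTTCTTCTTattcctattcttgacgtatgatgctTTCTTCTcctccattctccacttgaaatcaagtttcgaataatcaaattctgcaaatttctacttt
egl-19 (chrIV:7414317-7414417): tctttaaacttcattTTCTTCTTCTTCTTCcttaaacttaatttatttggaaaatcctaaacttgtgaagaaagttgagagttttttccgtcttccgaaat
nlp-11 (chrII:9690393-9690493): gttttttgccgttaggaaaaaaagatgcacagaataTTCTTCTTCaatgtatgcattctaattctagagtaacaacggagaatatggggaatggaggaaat

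The signal value of each peak is the one the authors' caller gave, on a scale that was not stated, and it is used to rank and describe peaks within a list. It ran from 28.2 to 129 over the 361 intronic peaks, with a median of 42.4 and quartiles of 34.5 and 55.9. The median was 42.4 for the intronic peaks, 40.3 for the 563 autosomal intergenic peaks over 500 bp from gene starts and 41.8 for the 646 peaks within 500 bp of a gene start. This last class was taken from all chromosomes, X included, here and below, unlike the intronic and intergenic peaks. Of the intronic peaks 189 (52.4%, Wilson 95% interval 47.2% to 57.5%) lay above the median of the whole list, against 259 (46.0%, 41.9% to 50.1%) of the intergenic peaks and 323 of the 646 (Wilson 46.2% to 53.8%) peaks near gene starts. Neither difference passed Fisher's exact test (two-sided, adjusted p = 0.137 against intergenic peaks and 0.511 against those near starts). With 1 peak kept per gene over all classes, 236 intronic peaks were left, fewer than the 270 kept in the summit tests below. The differences were then 8.90 percentage points over intergenic peaks and 8.03 over peaks near starts. That alternative kept the strongest peak, and so chose peaks by the value compared, and nothing is read from its test. The difference from peaks near starts turned to -1.25 percentage points without replicate 1. Leaving out a replicate, here and below, means that peaks were taken from the other replicate's own list. That gave 373 intronic peaks without replicate 1 and 382 without replicate 2.

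The 20 strongest intronic peaks lay in 20 different genes and had signals of 84.3 or more. The top peak was in unc-42, which encodes a homeodomain factor of neuron identity, at chrV:9765737-9765867 in the fifth of 7 introns, 3598 bp from the gene's 5' end. It had a signal of 75.4 in the list of replicate 1 and 53.2 in that of replicate 2. A second peak in unc-42 had a signal of 33.7. Other regulators in this group were hif-1, the hypoxia-inducible factor (signal 104), zip-2, a bZIP factor of the response to pathogens (84.9), and ast-1, an ETS factor of dopaminergic neurons (84.8). Genes of signalling and excitability in the group were pde-3 (96.1), daf-5, a Ski and Sno relative in the dauer TGF-beta pathway (93.4), hmp-2, a beta-catenin (92.0), pkc-1, a protein kinase C (90.7), and egl-19 (86.7). Genes of secretion in the group were nlp-11 (85.9) and ida-1, which encodes a dense-core vesicle protein (84.3). The remaining 9 were K05C4.3 (122), dhhc-2, a palmitoyltransferase gene (107), T28B11.1 (102), Y111B2A.12 (97.4), F28E10.1 (91.2), cpna-5, a copine gene (91.1), T28F4.1 (90.6), W06H8.6 (90.1) and K05C4.5 (88.4).

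Of these 20 peaks, 5 lay on chromosome I, 5 on II, 3 on III, 2 on IV and 5 on V. None held RTAAAYA within 50 bp of the summit and 4 held AAGAAGA. 3 of them, in K05C4.3, K05C4.5 and hmp-2, belonged to a dense block on chromosome I, where 10 or more summits of the thresholded list fell within 20 kb. That block held 11 of the 361 intronic peaks, and overlapping regions there are not separate observations. 3 of the 20, in hif-1, cpna-5 and zip-2, lay within 500 bp of the start of another annotated transcript of a protein-coding gene.

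The replicates were compared at the 361 peaks, which had been selected for agreement, so that these values hold within the chosen set. In the list of replicate 1 their signal ran from 5.76 to 83.0 with a median of 26.7, and in that of replicate 2 from 4.94 to 76.3 with a median of 18.1. All 361 overlapped a region of replicate 1, and 1 had no region in the list of replicate 2. The 2005 strongest regions of replicate 1 covered 308 of the 361, and those of replicate 2 covered 276. Both covered 234 (64.8%, Wilson 95% interval 59.8% to 69.6%) and neither covered 11. Across 360 peaks the signal in one replicate tracked that in the other loosely (Spearman's rho 0.418, Pearson's r 0.399 on the log2 scale). These correlations are across peaks of 2 libraries, and the peaks are not independent. The rho was 0.252 across 559 intergenic peaks and 0.370 across 638 peaks near gene starts.

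**Figure D1:**
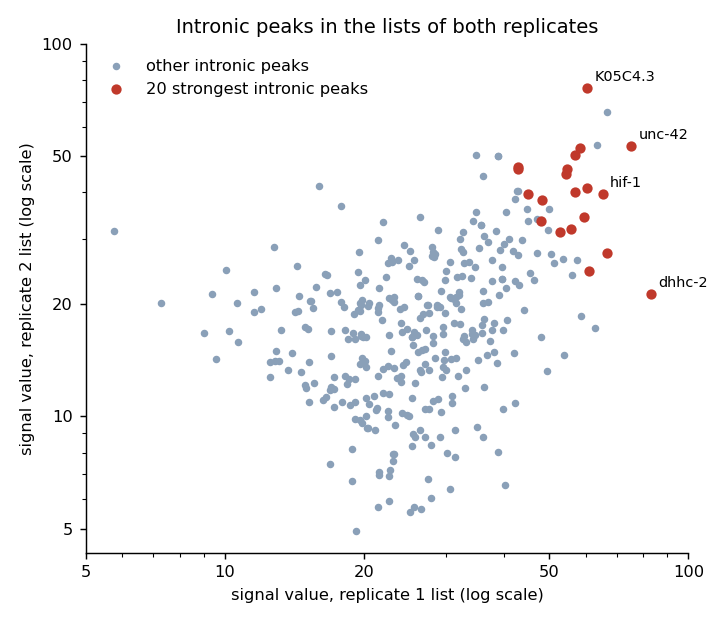
Signal value of each intronic peak in the list of replicate 1 (horizontal, log scale) and of replicate 2 (vertical, log scale), with the 20 strongest peaks of the thresholded list in red. The cloud is broad (Spearman's rho 0.418, n = 360), and dhhc-2 has a signal of 83.0 in replicate 1 and 21.3 in replicate 2.

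The share covered in both replicates was 64.8% for intronic peaks, 59.5% for intergenic peaks (335 of 563) and 57.4% for peaks near gene starts (371 of 646). The difference from intergenic peaks did not pass Fisher's exact test (two-sided, adjusted p = 0.111), and that from peaks near starts, 7.39 percentage points, passed it (adjusted p = 0.0453). This call was lost in 3 of 5 alternatives. The difference was 5.22 percentage points with gene starts taken at 1000 bp (exact test, adjusted p = 0.221). It was 3.86 percentage points with the 1000 strongest regions of each replicate (exact test, adjusted p = 0.225) and -0.358 with the 4000 strongest (adjusted p = 0.921), and over all alternatives the adjusted p ran from 0.00313 to 0.921. The strongest peaks showed unequal replicates as well: daf-5 had a signal of 66.8 in replicate 1 and 27.4 in replicate 2, whereas pkc-1 had 42.9 and 46.7 and T28B11.1 had 58.3 and 52.5.

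The letters at the summits differed from those beside them. G and C made up 42.7% ± 8.57 of the summit windows and 34.8% ± 8.28 of control windows of the same width 500 bp towards higher coordinates (SD, n = 361 each). The content was higher at 262 summits, lower at 82 and equal at 17 (exact two-sided sign test, p = 4.6e-23), and the difference of 7.86 percentage points kept its direction and its call in all 10 alternatives tried. Autosomal intronic sequence more than 500 bp from gene starts, from here on called eligible, averaged 32.7% ± 8.88 over 205372 tiles of 101 bp. Repeats and low-complexity sequence, which the RefSeq genome marks in lower case, took up 24.5% of the summit windows, 37.3% of the control windows and 54.3% of the eligible sequence. Of the control windows, 295 were wholly intronic.

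All possible 7-mers, with strands merged, were compared between summit and control windows by an exact two-sided McNemar test with Benjamini-Hochberg adjustment. At summits 80 of them (0.977%) were more frequent, and 49 (0.598%) were rarer, than in control windows. AAGAAGA lay at 90 summits (24.9%) and in 7 control windows (1.94%), with an adjusted p of 1.4e-15. CTTCTTC lay at 77 summits (21.3%) and in 10 control windows (2.77%; exact test, adjusted p = 6.6e-11), and AGAAGAA, which overlaps both, at 77 summits and in 15 control windows (adjusted p = 9.6e-09). AAAGAGA was found at 57 summits against 10 control windows, and AGAGAAA at 67 against 15 (exact test, adjusted p = 9.1e-07 each). The 90 peaks with AAGAAGA were spread over 81 host genes. In eligible tiles the 5 words were found in 1.93% to 4.38%.

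Words of A and T were scarce at the summits. TTAAAAA lay at 8 summits (2.22%) and in 78 control windows (21.6%; exact test, adjusted p = 1.7e-13), beside 22.8% of eligible tiles. ATTAAAA was found at 1 summit against 41 control windows (exact test, adjusted p = 3.2e-08), ATTTTTA at 13 against 65 (1.8e-07), TTTAAAA at 9 against 59 (4.6e-07) and TAAAAAA at 14 against 64 (3.2e-06). The test was not adjusted for base composition, and the part of the difference in G and C content in these counts was not tested. Of the 10 words named here, each kept its direction in all 6 alternatives tried for it. The call was lost for TAAAAAA alone, without replicate 2. The counts of 80 and 49 moved more: without replicate 1 they were 45 and 23, and with 1 peak per gene 38 and 32.

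The higher words were mostly runs of purines on one strand. Of the 128 7-mers made of purines alone or pyrimidines alone, 48 were higher at summits and 0 lower. Of the 64 made of A and T alone, 24 were lower and 0 higher. An unbroken run of 15 or more purines or pyrimidines was found at 113 summits (31.3%), in 14 control windows (3.88%) and in 3.64% of eligible tiles. The median longest run was 11 bp at summits and 8 bp in control windows. The order of the letters varied: over the 21 words that share the base content of AAGAAGA, the share of summits with a match ran from 7.76% to 24.9%, with a median of 14.4% at summits and 3.88% in control windows. Relative to the host gene, 58 peaks carried the pyrimidine form of AAGAAGA on the coding strand, 29 the purine form and 3 both. The pyrimidine form made up 66.7% of the peaks with 1 form and 62.0% of all matches in eligible introns. Over 4 equal groups of the peaks by signal, AAGAAGA was at 24.2%, 20%, 26.7% and 28.9% of summits from the weakest to the strongest.

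The forkhead core did not follow the purine-rich words. RTAAAYA lay at 18 summits (4.99%, Wilson 95% interval 3.18% to 7.74%) and in 38 control windows (10.5%, 7.77% to 14.1%), with an adjusted p of 0.0181 in an exact two-sided McNemar test. It was found in 9.18% of eligible tiles. RTAAAYA is itself rich in A and T, and this test was not adjusted for base composition. The part of the difference in G and C content in this count was not tested. The lower share at summits kept its direction in all 10 alternatives, but passed the test in only 3 of them. The adjusted p ran from 0.000592 to 0.371, and it was 0.371 without replicate 1 and 0.0631 with control windows wholly in introns. GTAAACA lay at 4 summits (1.11%) and in 1 control window (0.277%), with an adjusted p of 0.375, and in 0.949% of eligible tiles. That difference turned to -0.554 percentage points with the control window at 1000 bp. At this number of matches a difference in GTAAACA was not detectable. Over the same 4 groups by signal, RTAAAYA lay at 7.69%, 2.22%, 3.33% and 6.67% of summits from the weakest to the strongest.

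**Figure D2:**
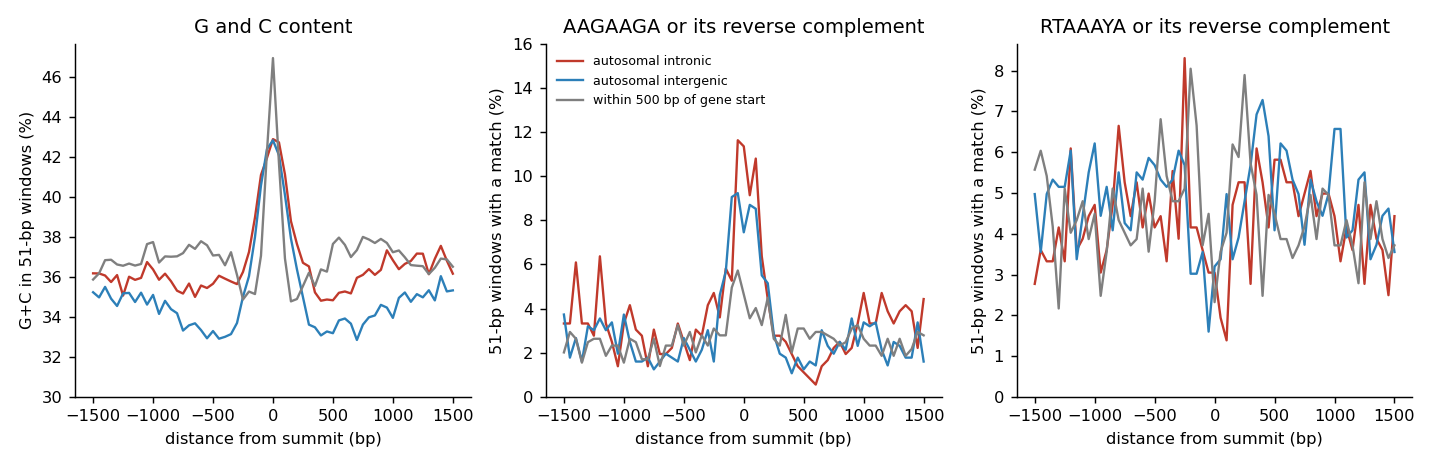
Content of G and C, matches to AAGAAGA and matches to RTAAAYA (R a purine, Y a pyrimidine) in 51-bp windows by distance from the summit, for autosomal intronic peaks (red), autosomal intergenic peaks (blue) and peaks within 500 bp of gene starts on any chromosome (grey). All 3 classes have their highest G and C content at the summit. Matches to AAGAAGA are highest 50 bp from it in each class, the red and blue lines above the grey, while RTAAAYA shows no rise there.

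Intronic summits were then set against the other classes. Against intergenic peaks, Fisher's exact test over the same 7-mers called 0 (0.0%), with 184 at an unadjusted p under 0.05 and a smallest adjusted p of 0.260. AAGAAGA was found at 24.9% of intronic and 16.2% of intergenic summits, and runs of 15 or more purines or pyrimidines at 31.3% and 26.6%. Mean G and C content was 42.7% ± 8.57 at intronic summits and 42.6% ± 8.37 at intergenic summits (SD, n = 361 and 563). RTAAAYA lay at 4.99% of intronic summits, 6.57% of intergenic summits and 5.73% of summits near gene starts, and neither difference passed Fisher's exact test (adjusted p = 0.667 both).

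Against peaks within 500 bp of gene starts, in a comparison by Fisher's exact test added after the data had been seen, 21 of the 7-mers (0.256%) were more frequent at intronic summits and 47 (0.574%) less frequent. The purine-rich words headed the first group. CTTCTTC was at 21.3% of intronic summits and 6.66% of summits near starts, AAGAAGA at 24.9% and 8.98% (exact test, adjusted p = 1.3e-07 each), and AGAAGAA at 21.3% and 8.05% (1.0e-05). Words rich in G and C were found in the second group. CTGGCGC was at 0.277% of intronic summits and 6.50% of summits near starts (exact test, adjusted p = 0.000178), and GCGAGAC at 1.39% and 8.82% (0.000436). Mean G and C content was 42.7% ± 8.57 at intronic summits and 45.4% ± 9.13 at summits near starts (SD, n = 361 and 646), and its part in these differences was not tested. The peaks near starts were taken from all chromosomes, X included, and the part of the chromosome was not tested either.

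The position of the peaks is described without a test, since the rule used it. The 361 summits lay 503 to 38882 bp from the 5' end of their host gene, with a median of 4025 bp. The nearest protein-coding gene start of any gene was at a median of 3321 bp: 35 peaks lay within 1 kb of one, 249 over 2 kb and 120 over 5 kb away. The peaks nearest the limit of 500 bp were in K05C4.5 (503 bp, signal 62.5) and Y56A3A.7 (525 bp, 62.9) inside it, and in B0432.10 (500 bp, 29.7) and ocrl-1 (489 bp, 58.1) outside it. In all, 417 autosomal summits were intronic, and 56 of them lay at 500 bp or less and were not counted. Starts of further transcripts lay closer: 46 of the 361 (12.7%) were within 500 bp of another protein-coding transcript start, against 9.10% of eligible bases.

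Long introns held most of the peaks. The median host intron was 3173 bp long, with a range of 42 to 18116 bp. A base drawn from the eligible sequence lay in an intron with a median length of 1024 bp. Introns over 2 kb held 253 peaks (70.1%) in 29.7% of the eligible sequence, or 34.6 peaks per Mb, against 14.9 per Mb over all 24.2 Mb. Of the 20 strongest peaks, only 9 lay in introns over 2 kb. By length of the intron there were 5.22 peaks per Mb in introns of up to 500 bp, 5.43 above that to 1 kb, 8.43 above 1 kb to 2 kb, 31.5 above 2 kb to 5 kb and 39.3 in longer ones. First introns held 115 peaks (31.9%) in 16.1% of the eligible sequence. Among introns over 2 kb the share in first introns was 39.5%, against 30.3% of their eligible sequence. Within the intron, 100 summits lay in the part nearest the gene's 5' end when it was cut in 3, 128 in the middle and 133 in the last, and the median distance to an exon was 807 bp.

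**Figure D3:**
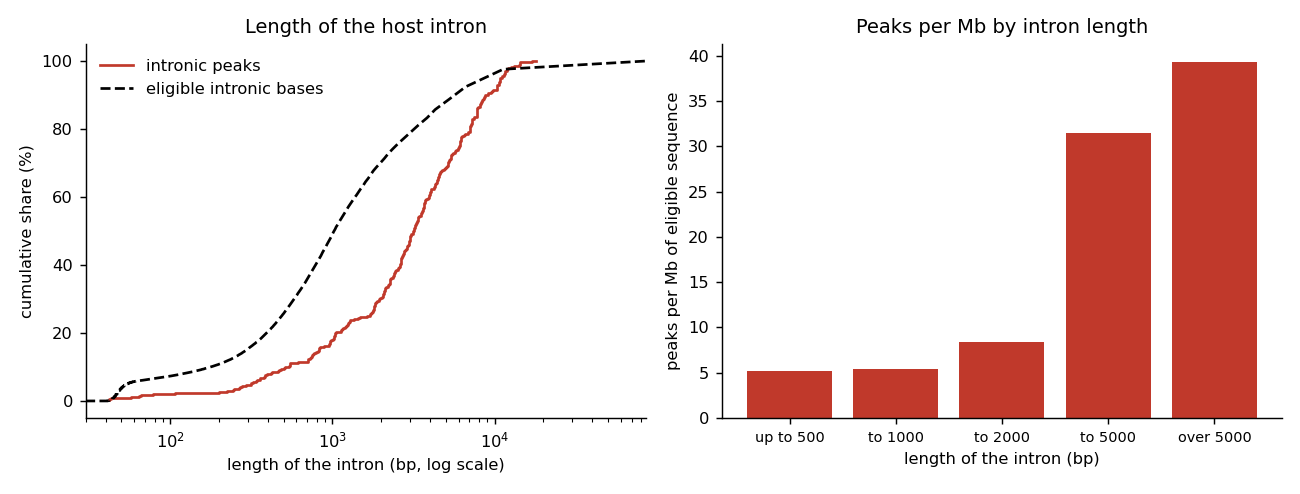
Left, cumulative share of intronic peaks (red) and of eligible intronic bases (dashed) by the length of the intron on a log axis. Right, peaks per Mb of eligible sequence by intron length, from 5.22 in introns of up to 500 bp to 39.3 in those over 5 kb.

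Along the chromosomes the peaks numbered 80 on I, 76 on II, 72 on III, 75 on IV and 58 on V. Per Mb of eligible sequence this was 14.96 on I, 18.8 on II, 15.3 on III, 14.9 on IV and 11.4 on V. Without the dense block chromosome I had 12.9. The middle part of each chromosome, cut in 3, where broadly used genes lie more densely in this species, held 179 peaks (49.6%) in 27.0% of the eligible sequence. Annotated non-coding RNA genes of the ncRNA class lay within 200 bp of 50 summits (13.9%), against 3.07% of the eligible sequence. Inside such a gene lay 28 summits (7.76%), against 0.975% of the eligible sequence. Small nucleolar RNA genes, which guide changes to ribosomal RNA, lay within 200 bp of 5 summits (1.39% against 0.219% of the eligible sequence). Genes of piRNAs, the germline small RNAs, lay near 8 (2.22% against 3.63%).

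The 361 peaks lay in 270 host genes, which is 1.85% of the 14596 autosomal protein-coding genes with eligible sequence. Of the host genes 207 had 1 peak, 44 had 2, 10 had 3 and 9 had 4, so that 154 peaks shared their gene with another. Neighbouring peaks of a gene lay 199 to 15368 bp apart, with a median of 1707 bp (n = 91 gaps). Host genes were rich in intron: the median eligible sequence was 7445 bp in host genes, against 638.5 bp over all 14596. 184 peaks lay in genes on the plus strand. Each peak was given to the gene around it, and 2 peaks had 2 such genes.

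The 9 genes with 4 peaks were zfp-1, a PHD-finger chromatin gene, mpz-1, a gene with many PDZ domains, pqn-41, which encodes a glutamine-rich protein, kcc-2, a potassium chloride cotransporter gene, kin-1, the catalytic subunit of protein kinase A, ncl-1, a TRIM-NHL gene of nucleolar size, ppfr-1, a regulatory subunit of protein phosphatase 4, and daf-5 and pkc-1. The signals in daf-5 (chrII:14033216-14052304) were 93.4, 60.7, 49.3 and 39.5. Those in pkc-1 (chrV:12014383-12032160) were 90.7, 62.4, 38.2 and 29.6, all in 1 intron. Both thus held 1 peak well above the rest of the gene. The signals in zfp-1 (chrIII:8791535-8806305) were 82.9, 60.4, 54.3 and 52.8, over 2 introns. In kin-1 the 4 values were close together, from 47.8 to 56.2, and so were those of ppfr-1, from 34.4 to 36.0. In daf-5 and ppfr-1, some of the 4 summits shared a region of a replicate list, so these are not separate observations there. AAGAAGA was at 3 of the 4 summits in kin-1 and in pqn-41, at 2 in mpz-1, at 1 in kcc-2 and in ppfr-1, and at none in daf-5, ncl-1, pkc-1 or zfp-1.

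**Figure D4:**
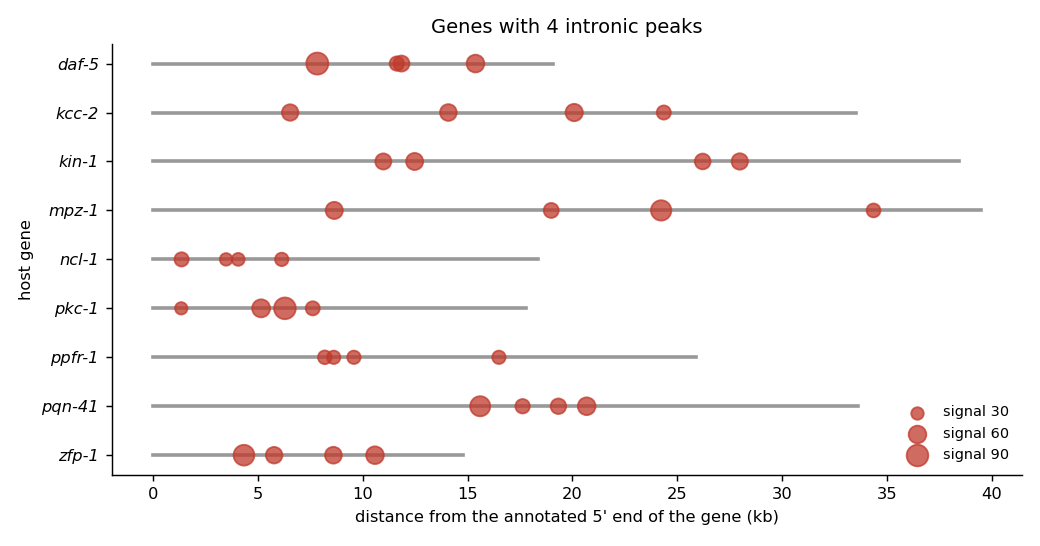
The 9 genes with 4 intronic peaks, each drawn as a grey line from its annotated 5' end (left) in kb, with a red circle at each summit whose area is proportional to the signal. In pqn-41, ncl-1, pkc-1 and ppfr-1 the 4 peaks lie in 1 intron, while in mpz-1 they lie in 4 introns from 8.64 to 34.4 kb.

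The host genes were counted in 16 lists, each beside the 1.85% of all genes with eligible sequence that hosted a peak, and without a test, since the lists were written with results of these data known. Lists of long-introned genes offer more sequence, so peaks per Mb of eligible sequence are given too, beside 14.9 over all genes and 34.6 in introns over 2 kb. Among genes of neuronal function, 15 of 62 synaptic and pan-neuronal genes were hosts (24.2%), with 53.2 peaks per Mb. They were led by ida-1, by rab-3, the vesicle GTPase (signal 69.1), by unc-13, a vesicle priming factor (61.4), and by rbf-1, a rabphilin (57.2). Of ion channel and receptor genes 10 of 65 were hosts (15.4%), with 37.1 peaks per Mb. They included egl-19, nca-2, a sodium leak channel (79.99), avr-14, a glutamate-gated chloride channel (65.0), and egl-23, a potassium channel (44.0). Axon guidance and adhesion genes gave 11 hosts of 61 (18.03%) and 26.4 peaks per Mb, or 20.8 without the dense block in which hmp-2 lies. Beside hmp-2, these were led by unc-73, a guanine nucleotide exchange factor of axon guidance (67.5), mig-10, a lamellipodin (53.6), and cdh-1, a cadherin (51.7).

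Genes of signalling pathways were hosts in 17 of 101 cases (16.8%). They held 33 peaks, or 56.6 per Mb, and 51.5 per Mb without the dense block. Their strongest peaks were those in pde-3, daf-5, hmp-2 and pkc-1, which held 2, 4, 3 and 4 of the 33 peaks. Peaks of the same gene were thus counted singly in this density. The gene hmp-2 is also in the axon guidance and adhesion list. Among transcription factors the shares varied by family. Homeobox genes had 2 hosts of 71 (2.82%), unc-42 and ceh-32, a Six-class gene (65.3), and 15.8 peaks per Mb. Nuclear hormone receptors had 2 of 246 (0.813%), nhr-11 (36.3) and nhr-105 (30.6), and 6.64 peaks per Mb. The bHLH list had 1 of 28, hif-1, with 17.4 peaks per Mb. The other factors had 5 of 48 (10.4%) with 19.0 peaks per Mb, among them zip-2, ast-1, mef-2 (84.1) and tra-1, the Gli factor of sex determination (53.1). Forkhead genes, the family of the tagged factor, had 2 of 11 (18.2%): daf-16 (55.03) and fkh-7 (42.4). These 2 peaks made 34.6 per Mb, the level of all introns over 2 kb. The heterochronic list, genes of developmental timing, had 1 of 12, sea-2 (48.1), whose 2 peaks made 32.3 per Mb.

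The other lists had 2 hosts, 1 host or none. Muscle and cytoskeleton genes had 2 of 79 (2.53%), lev-11, a tropomyosin (36.6), and fln-1, a filamin (31.7), and 4.68 peaks per Mb although their median eligible sequence was 2314 bp. Their share of hosts was above the 1.85% over all genes, and the 4.68 rests on 2 peaks. Chemoreceptors had 1 of 1295 (0.0772%), srw-97 (32.01), whose 2 peaks made 2.41 per Mb. Their median eligible sequence was 415 bp. No peak lay in the 40 DREAM and cell cycle genes, 31 ribosomal protein genes, 209 F-box genes or 78 collagen genes with eligible sequence. The median eligible sequence per gene was 710 bp for DREAM and cell cycle genes, 91 bp for ribosomal protein genes, 309 bp for F-box genes and 169.5 bp for collagens. Over all genes it was 638.5 bp. In total these lists without a peak held 0.0689, 0.00349, 0.121 and 0.0369 Mb in that order, beside 14.9 peaks per Mb over all genes. So little sequence would hold few peaks at that level, and nothing is read from their absence. Over all autosomal genes, split into 5 ranges of eligible sequence, the share that hosted a peak ran from 0.0320% in the range with the least to 23.3% in that with the most, and the part of intron length in the counts by list was not tested otherwise.

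**Figure D5:**
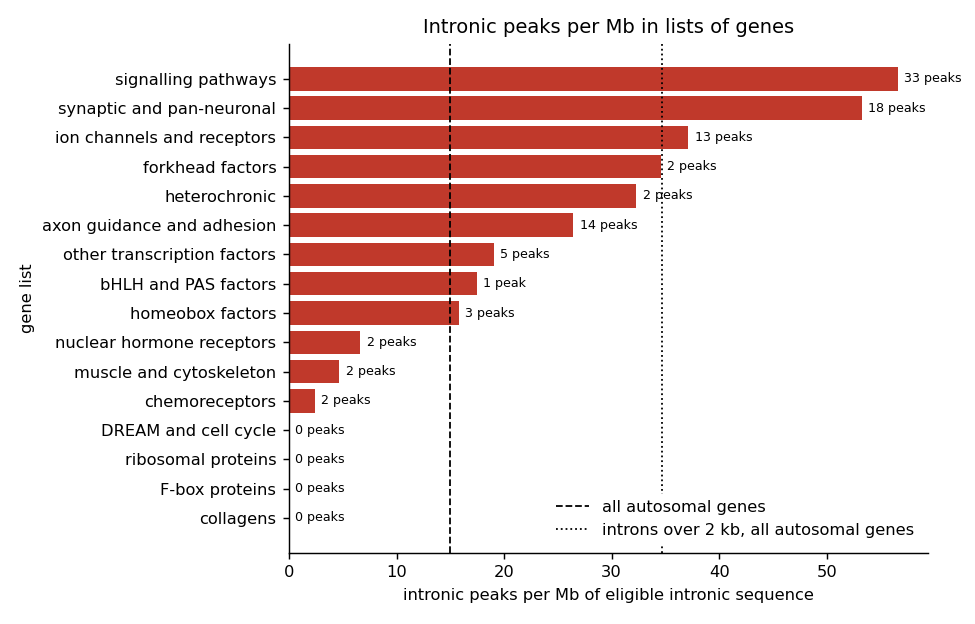
Intronic peaks per Mb of eligible intronic sequence in 16 lists of genes, with the number of peaks beside each bar, the level over all autosomal genes as a dashed line (14.9) and that in introns over 2 kb as a dotted line (34.6). Signalling pathways (56.6, or 51.5 without the dense block) and synaptic and pan-neuronal genes (53.2) stand highest, and 4 lists have no peak.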

How the data were processed

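The deposited files were peak lists in narrowPeak format. Per the file headers and descriptions the authors deposited, each replicate's list and the thresholded list, derived by the irreproducible discovery rate, were made against a control alignment on build ce11. The signal value of each region was deposited by the authors with no stated scaling, and so was the summit offset. The sources used here name no aligner, caller, version or depth, so no interval for a signal value is given. Lists on ce10 were not used.

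Genes came from Ensembl release 115 and sequence from RefSeq, both WBcel235. A summit was matched to a replicate region at an overlap of 1 bp or more. Windows ran 50 bp to each side of a summit, and control windows were centred 500 bp towards higher coordinates. Both strands were searched. Fisher's and McNemar's exact tests, sign tests and Wilson intervals at 95% were computed in Python 3.11.15 with scipy 1.17.1 and statsmodels 0.14.6, with Benjamini-Hochberg adjustment within each family and a threshold of 0.05. Intervals cover counting error only. The scripts were tested on simulated windows of random letters, all of the same base composition. Either test called 4 of 4 spiked words there, and 0 of 7733 words that shared no long stretch with them. Windows that differ in base composition or hold repeats, as the real ones do, were not simulated.

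Named were the hosts of the 20 strongest peaks, genes with 4 or more, and up to 4 hosts with the strongest peak per list. The rule also named 10 7-mers, in equal numbers those with the smallest p among words higher and among words lower at summits. Some higher words that were not named, AAAAGAG among them, had a smaller p than TAAAAAA. Genes named at the distance limit, those with GTAAACA and the 7-mers compared with gene starts fall outside this rule and were chosen after their values were seen, apart from the sequences with GTAAACA, which had a rule of their own. The peaks and lists were chosen with earlier results of these data known. Alternatives were other distances, windows, control windows and ranks, each replicate's list alone, the stronger peaks, 1 peak per gene, and, added later, leaving out dense blocks and comparing 7-mers with gene starts.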

Additional observations from a re-analysis of the deposited data

How the results depend on the processing

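Of 60 recomputed values for the 10 named 7-mers, 59 kept direction and call. TAAAAAA lost its call without replicate 2. Beyond the values given with the results, the excess of peaks covered in both replicates over peaks near gene starts was 3.86 percentage points with 1000 regions, 5.22 with gene starts taken at 1000 bp, and -0.358 with 4000 regions, and passed the test in none of these. The share of peaks above the median signal, intronic minus near starts, ran from -1.25 to 3.45 percentage points when a replicate was left out. With 1 peak per gene it was 8.03, and 8.90 against intergenic peaks, but that setting kept the strongest peak and so selected on the signal compared. RTAAAYA at summits minus control windows no longer passed at -3.05 percentage points with the control window at lower coordinates or at 1000 bp, -5.08 with intronic controls, -2.77 with windows of 25 bp to each side, -3.31 over the stronger 181 peaks and -5.19 with 1 peak per gene. It ran from -5.50 to -1.88 without a replicate. GTAAACA turned to -0.554 with the control window at 1000 bp. The count of higher 7-mers ran from 45 to 69 and that of lower ones from 23 to 33 without a replicate. With 1 peak per gene, 38 were higher (all 38 among the 80) and 32 lower (27 among the 49). With the control window at lower coordinates 32 were lower, 21 of them among the 49. In place of the 0 called against intergenic peaks, 68 were called against peaks near gene starts. The cause of these changes was not tested. With 1 peak per gene and with the stronger peaks fewer pairs were left (270 and 181), and the part of this was not tested either. Without dense blocks, an alternative chosen after seeing the data, 81 7-mers were higher and 63 lower.

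No paired analysis was possible because the series holds 1 group, so that replicate numbers pair no libraries between groups. The pairs in the summit tests are 2 windows of 1 peak. Depth is unknown, so a difference that missed the threshold is not shown to be absent. Single GTAAACA counts are too few to compare.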
